A study of Mus musculus with 9 samples.

Results

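UBTF peaks at protein-coding genes were compared between malignant and wild type mouse pre-B cells, using the 2 malignant and the 2 wild type peak lists of chromatin immunoprecipitation sequencing (ChIP-seq) out of 9 samples in all. Peaks on the ribosomal DNA (rDNA) sequence were left out, the best 100000 peaks of each list were kept by the peak caller's score, and a gene was counted in a list when the highest point of a peak, its summit, lay within 1 kb of the gene's start. Of 22367 protein-coding gene records, 107 had a summit in both malignant lists and neither wild type list, 1188 in both wild type lists and neither malignant list, and 1154 in all 4 lists. These are 0.478%, 5.31% and 5.16% of the gene records. The first set fell at 100 separate starts more than the window apart and the second at 1094, because neighbouring genes can share a summit. With all peaks of each list in place of the best 100000, the counts of genes were 607, 403 and 3485. The larger stage-only set was then the malignant one.

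The IgM-negative cells were sorted by flow cytometry from bone marrow of C57BL/6 mice. Per the study's methods, wild type and premalignant cells were B220 high, IgM low, IgD low pro-B and pre-B cells, whereas malignant cells were transformed pre-B cells gated as B220+, IgM-, IgD-. The wild type animals carried no transgene and were 4 to 6 weeks old. The malignant animals were Eµ-Myc heterozygotes of 10 to 20 weeks with established lymphoma, in which an immunoglobulin heavy chain enhancer drives Myc in the B lineage. A premalignant stage, Eµ-Myc mice of 4 to 6 weeks, gave another 2 lists that served here only to look up genes chosen from the other 4. According to the study's methods the replicates were individual animals, the wild type and premalignant mice were female and the malignant mice were of both sexes, and the antiserum recognised both UBTF1 and UBTF2. Stage therefore went together with age and with the sorting gate, which cannot be told apart from it, and lymphomas of this model arise as separate clones. The lists hold no expression values, so the sorted cell type could not be checked beyond UBTF peaks at marker genes, and the 3 input samples were not analysed here.

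UBTF is an HMG-box protein that binds along the rRNA gene repeats and, with the SL1 complex, brings in RNA polymerase I. UBTF1 is the form most active in that role, while UBTF2 has also been tied to genes read by RNA polymerase II. MYC raises ribosome production at many levels, among them the genes of the polymerase I machinery, and Eµ-Myc mice are a standard model of B lymphoma driven by MYC.

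The depth of the libraries is unknown, since a peak list holds no read counts. The lists held 116180 and 184609 peaks in wild type replicates 1 and 2 and 279068 and 563265 in malignant replicates 1 and 2, so that the best 100000 were 86.1%, 54.2%, 35.8% and 17.8% of them. Premalignant replicate 1 held only 78113 peaks, and all 78074 outside the rDNA were kept. Premalignant replicate 2 held 575674 peaks, and the best 100000 were 17.4% of them. Minimum peak width was 240 and 250 bp in wild type replicates 1 and 2, 800 and 670 bp in malignant replicates 1 and 2, and 260 and 680 bp in premalignant replicates 1 and 2. This width split and the stage cannot be told apart between the wild type and malignant lists. Malignant replicate 2 stood apart from the other 3 lists. Across the 1154 shared gene starts the Spearman correlation of rank was 0.635 between the wild type replicates and 0.246 between the malignant replicates, and it was 0.476 and 0.428 between malignant replicate 1 and wild type replicates 1 and 2. These correlations are across genes, which are not independent replicates.

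The sets differed in the sequence under their summits, and the sequences below were chosen because they carry that difference. Each is the 201 bp centred on 1 summit, plus strand of mm9, and was read from the NCBIM37 genome. The first 2 are among the best ranked genes of the wild type lists only. Slitrk3 and Dbx1 are shared gene starts that ranked far lower in the malignant lists, and Pak3 is among the best in all 4. Their summits are those of wild type replicate 1, and capitals mark the longest run of a repeated unit.
C920008G01Rik (chr14:53639803-53640003): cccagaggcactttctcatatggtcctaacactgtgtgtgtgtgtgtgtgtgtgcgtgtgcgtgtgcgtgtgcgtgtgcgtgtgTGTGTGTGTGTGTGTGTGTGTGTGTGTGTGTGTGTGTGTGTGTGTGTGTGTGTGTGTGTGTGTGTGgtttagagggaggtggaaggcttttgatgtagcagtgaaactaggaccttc
Pcdh17 (chr14:84842658-84842858): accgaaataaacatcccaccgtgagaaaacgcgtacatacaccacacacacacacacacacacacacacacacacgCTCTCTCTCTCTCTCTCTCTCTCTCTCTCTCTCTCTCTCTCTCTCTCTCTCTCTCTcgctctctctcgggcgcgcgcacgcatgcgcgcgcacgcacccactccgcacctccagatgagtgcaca
Slitrk3 (chr3:72861722-72861922): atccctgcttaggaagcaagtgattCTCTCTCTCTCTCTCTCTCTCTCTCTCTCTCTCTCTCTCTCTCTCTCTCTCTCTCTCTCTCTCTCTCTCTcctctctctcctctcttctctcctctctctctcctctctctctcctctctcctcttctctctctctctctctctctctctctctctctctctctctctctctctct
Dbx1 (chr7:56893020-56893220): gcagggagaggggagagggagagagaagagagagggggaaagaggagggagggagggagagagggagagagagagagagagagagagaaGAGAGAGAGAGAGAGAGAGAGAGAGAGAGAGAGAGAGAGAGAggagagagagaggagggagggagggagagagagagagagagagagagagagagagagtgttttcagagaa
Pak3 (chrX:139953899-139954099): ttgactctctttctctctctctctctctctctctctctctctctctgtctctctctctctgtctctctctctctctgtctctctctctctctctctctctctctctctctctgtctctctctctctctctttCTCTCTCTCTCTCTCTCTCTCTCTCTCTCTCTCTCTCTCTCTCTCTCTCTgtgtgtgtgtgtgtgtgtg

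The next 3 genes had a summit in the malignant lists only, while Ppp3cb is a shared gene start that ranked far higher in the malignant lists. The summits are those of malignant replicate 1 for Ppp3cb and of malignant replicate 2 for the others. Capitals mark CG dinucleotides.
Ikzf1 (chr11:11585425-11585625): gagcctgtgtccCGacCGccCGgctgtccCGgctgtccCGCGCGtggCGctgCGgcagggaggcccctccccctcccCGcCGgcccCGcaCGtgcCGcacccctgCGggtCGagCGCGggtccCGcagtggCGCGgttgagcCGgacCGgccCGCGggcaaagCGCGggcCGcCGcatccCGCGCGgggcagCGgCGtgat
Ppp4r4 (chr12:104770550-104770750): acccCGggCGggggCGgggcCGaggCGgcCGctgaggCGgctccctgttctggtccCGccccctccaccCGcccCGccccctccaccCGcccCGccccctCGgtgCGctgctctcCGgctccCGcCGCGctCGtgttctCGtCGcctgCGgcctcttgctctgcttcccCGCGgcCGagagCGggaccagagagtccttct
Ddx43 (chr9:78243781-78243981): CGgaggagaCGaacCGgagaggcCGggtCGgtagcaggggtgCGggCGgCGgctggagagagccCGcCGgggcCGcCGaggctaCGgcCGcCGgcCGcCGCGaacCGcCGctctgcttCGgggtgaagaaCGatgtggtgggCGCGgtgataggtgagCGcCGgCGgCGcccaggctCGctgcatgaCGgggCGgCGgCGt
Ppp3cb (chr14:21365411-21365611): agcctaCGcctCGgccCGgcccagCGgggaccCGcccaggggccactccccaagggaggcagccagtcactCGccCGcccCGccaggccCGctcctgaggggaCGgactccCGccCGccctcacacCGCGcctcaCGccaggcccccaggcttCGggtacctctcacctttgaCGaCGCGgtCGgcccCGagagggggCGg
The 5 sequences of the first group held a run of 42 to 70 bp of a 2-base unit. The 4 of the second group held no tandem repeat of 40 bp or more and 22 to 34 CG dinucleotides each, at a GC content of 76.6% to 81.6%.

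How many genes carried UBTF at their start was the first question. Wild type replicates 1 and 2 had a summit at 6615 and 5731 genes (29.6% and 25.6%) and malignant replicates 1 and 2 at 4407 and 2995 (19.7% and 13.4%). Both malignant lists were thus below both wild type lists. The means were 6173 ± 625 and 3701 ± 998 genes (SD, n = 2 libraries each), a difference of -2472 genes (two-sided exact permutation test, p = 0.33, the smallest p that 2 libraries against 2 can give). With all peaks of each list in place of the best 100000, the counts were 7306 and 9110 genes in wild type and 9618 and 7780 in malignant, a difference of 491 genes in the other direction (exact permutation test, p = 0.667). The size of the decrease depended on which peaks were counted. With the best 50000 peaks the difference was -469 genes (exact permutation test, p = 0.667). With 1 summit for each group of overlapping peaks it was -757 genes. Windows of 500 bp and 2 kb gave -2070 and -2974 genes. The share of kept peaks that lay near a gene start was 8.1% and 6.6% in wild type and 4.67% and 2.95% in malignant libraries (exact permutation test, p = 0.33). This difference of -3.54 points was -1.24 points with the best 50000 peaks (exact permutation test, p = 0.667). It was -0.783 points with 1 summit for each group of overlapping peaks and -4.12 points with all peaks.

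**Figure D1:**
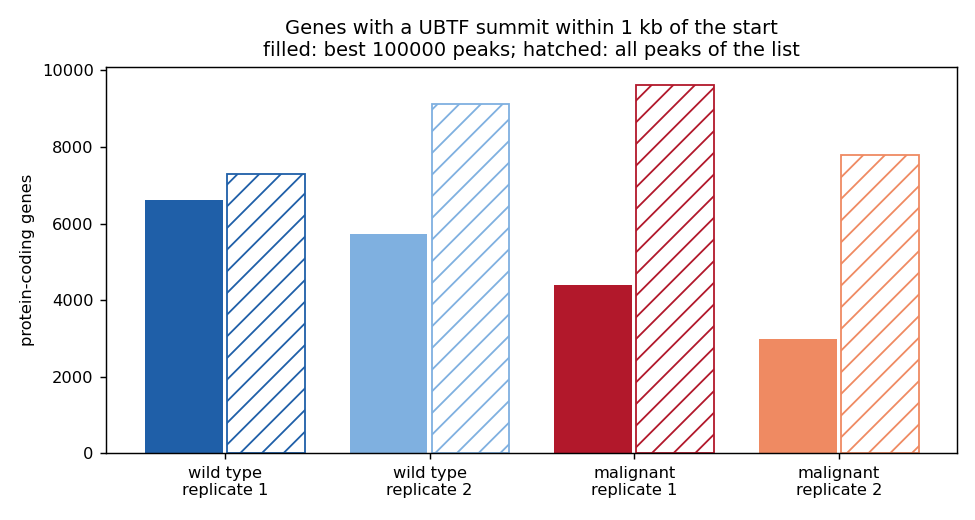
Protein-coding genes with a UBTF summit within 1 kb of the start (vertical axis, number of genes) in each of the 2 wild type and 2 malignant libraries. Filled bars use the best 100000 peaks and fall from 6615 to 2995 genes from left to right, whereas hatched bars use all peaks and lie between 7306 and 9618 with no order by stage.

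The 107 genes with UBTF in the malignant lists only were chosen by this pattern, so their percentiles are a description. A rank percentile is the share of the kept peaks that a peak outranks, with 100 for the best. The members had a median of 40.9 in malignant replicate 1 and 59.8 in malignant replicate 2, against medians of 55.5 and 60.3 for all gene starts with a summit in those libraries and 69.7 and 69.5 for the shared ones. They ranked below the typical gene start in malignant replicate 1 and near it in malignant replicate 2. In the full lists, 12 of the 107 (11.2%) also had a weaker summit in wild type replicate 1 and 51 (47.7%) in wild type replicate 2, and 52 were absent from both. Of all genes, 32.7% and 40.7% had a summit in those full lists.

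Gm8258, a gene model without an assigned role, ranked at 81.7 and 87.3 in malignant replicates 1 and 2. Ppp4r4, a regulatory subunit of protein phosphatase 4, ranked at 76.1 and 92.6, with summits 48 and 125 bp upstream of its start. Chtf8, part of a replication clamp loader, and Cirh1a, a nucleolar protein of small ribosomal subunit assembly, ranked at 67.6 and 97.2. These last genes are divergent neighbours whose starts share each summit, and they count as 1 place in the genome. Grik4, a kainate receptor subunit, ranked at 59.0 and 97.3. Ddx43, a DEAD-box RNA helicase, and its overlapping neighbour 4930542C12Rik ranked at 66.3 and 86.5 and likewise share their summits. Malignant replicate 2 gave the higher percentile for each of these genes. Olfr8, an olfactory receptor gene, was the exception among the 8 best ranked, at 83.1 and 79.6, with summits 943 and 881 bp upstream.

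Ikzf1, which encodes Ikaros, a zinc finger factor required for lymphocyte development, was the one gene of a 39-gene B cell identity list with UBTF in the malignant lists only. It ranked at 47.2 and 87.7 in malignant replicates 1 and 2, with summits in an intron 370 and 519 bp from the start (chr11:11585006, plus strand), and it was absent from both full wild type lists. It also had a summit in both premalignant lists, at 72.9 and 87.8. Of the other lists examined, Eif5a2, a translation factor of the eIF5A family, was in the malignant lists only, at 2.34 and 91.8. The zinc finger genes Zfp516 (68.9 and 42.0) and Zfp78 (55.5 and 16.7) and the vomeronasal receptor gene Vmn1r4 (52.2 and 76.1) completed the members found in any list. No gene of the polymerase I, MYC network, histone or cytosolic ribosomal protein lists (23, 21, 67 and 85 genes) was among the 107, and at the 0.478% of all genes that were malignant-only, lists of this size are too short to tell an absence from the background.

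The premalignant lists had no part in choosing the genes. Of the 107 genes, 22 (20.6%) had a summit in premalignant replicate 1 and 41 (38.3%) in premalignant replicate 2, against 19.3% and 8.45% of all genes. The first share was near that of all genes and the second above it. The replicate with the larger share was the one whose narrowest peak, at 680 bp, resembled that of the malignant lists. Whether the sharing goes with the stage or with the width split was not tested.

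The 1188 genes with UBTF in the wild type lists only had median percentiles of 44.4 and 37.8 in wild type replicates 1 and 2, against 46.3 and 40.7 for all gene starts with a summit in those libraries and 67.7 and 61.0 for the shared ones. Most of them were not lost from the malignant data altogether. In the full lists 789 (66.4%) had a summit in malignant replicate 1 and 657 (55.3%) in malignant replicate 2, against 43.0% and 34.8% of all genes. Of the 1188, 187 were absent from both.

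The best ranked was Gm11116, a gene model of unknown role, at 94.0 and 92.9 in wild type replicates 1 and 2, with ranks of 240942 and 280972 in the full malignant lists. C920008G01Rik ranked at 96.8 and 88.4, with its summit on the TG repeat printed above. Xlr4a, of an X-linked lymphocyte-regulated family, ranked at 94.2 and 90.8 on an AG repeat that lies 859 bp upstream of its start. Pcdh17, a protocadherin, ranked at 92.4 and 90.2 on a CT repeat. Gmip, a GTPase-activating protein, ranked at 92.5 and 89.2, and Cyp2f2, a cytochrome P450, at 92.2 and 89.0, both on TC repeats in an intron. Iigp1, an interferon-induced GTPase (90.8 and 90.5), and Gm15821 (94.5 and 86.2) had no such repeat. Thus 5 of the 8 best ranked lay on tandem repeats, and all 8 also had a summit in premalignant replicate 1 while none had one in premalignant replicate 2. Not all 8 lay as far outside the kept malignant peaks as Gm11116. In the full list of malignant replicate 1 Pcdh17 had rank 111760, Cyp2f2 112188.5 and Gmip 115846. Iigp1 had rank 122198 in malignant replicate 2. In the other malignant list Pcdh17, Gmip and Iigp1 had ranks of 378990, 457847 and 191908, and Cyp2f2 was absent. C920008G01Rik (253294 and 325144) and Xlr4a (257957.5 and 302763.5) were far down both.

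Members from the gene lists ranked lower. In the polymerase I list these were Taf1d, a subunit of SL1 (47.6 and 36.6), and Polr2e, a subunit common to polymerases I, II and III (18.0 and 1.40). In the MYC network they were Mxi1 (36.9 and 42.9) and Mxd1 (8.10 and 46.8), which encode MAX partners that oppose MYC. Among B cell identity genes they were Lef1, a transcription factor of early B cells (69.9 and 57.7), and Lyn, a kinase of B cell receptor signalling (36.6 and 29.1). The p53 and apoptosis list gave Bcl2l1, an inhibitor of apoptosis (74.1 and 47.5), Atr, a checkpoint kinase (42.3 and 6.49), and Cdkn2a, the locus of p16INK4a and p19ARF (23.6 and 5.42). Cdk2, a kinase of S phase entry, stood at 34.9 and 9.51. The metabolic genes Pfkp (40.4 and 69.6), Pfkm (14.5 and 5.72), Slc2a1 (19.1 and 54.0) and Impdh2 (9.01 and 1.40) also belonged here. Of the polymerase I, MYC network, B cell identity and p53 and apoptosis lists, 8.7%, 9.52%, 5.13% and 10.0% were thus wild type-only. The share was 2.63% of the cell cycle list and 9.52% of the metabolic list, against 5.31% of all genes. These shares rest on 1 to 4 genes each. Polr2e, Impdh2, Pfkm and Cdkn2a had a percentile below 6 in wild type replicate 2, near the end of the kept peaks, so their membership depended on where the list was ended. The lowest ranked gene start kept in each library had a percentile of 0.445, 0.286, 0.0395 and 0.0415 in wild type replicates 1 and 2 and malignant replicates 1 and 2. The first gene starts left out had ranks of 99606, 100062.5, 100056 and 100074 in the same order. In both wild type libraries that rank lay within a tie that spanned the limit.

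Of the 1188 genes, 495 (41.7%) had a summit in premalignant replicate 1 and 109 (9.18%) in premalignant replicate 2, against 19.3% and 8.45% of all genes. This order was the reverse of that of the malignant-only genes. Of the 1154 shared genes, 914 (79.2%) and 651 (56.4%) had one.

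**Figure D2:**
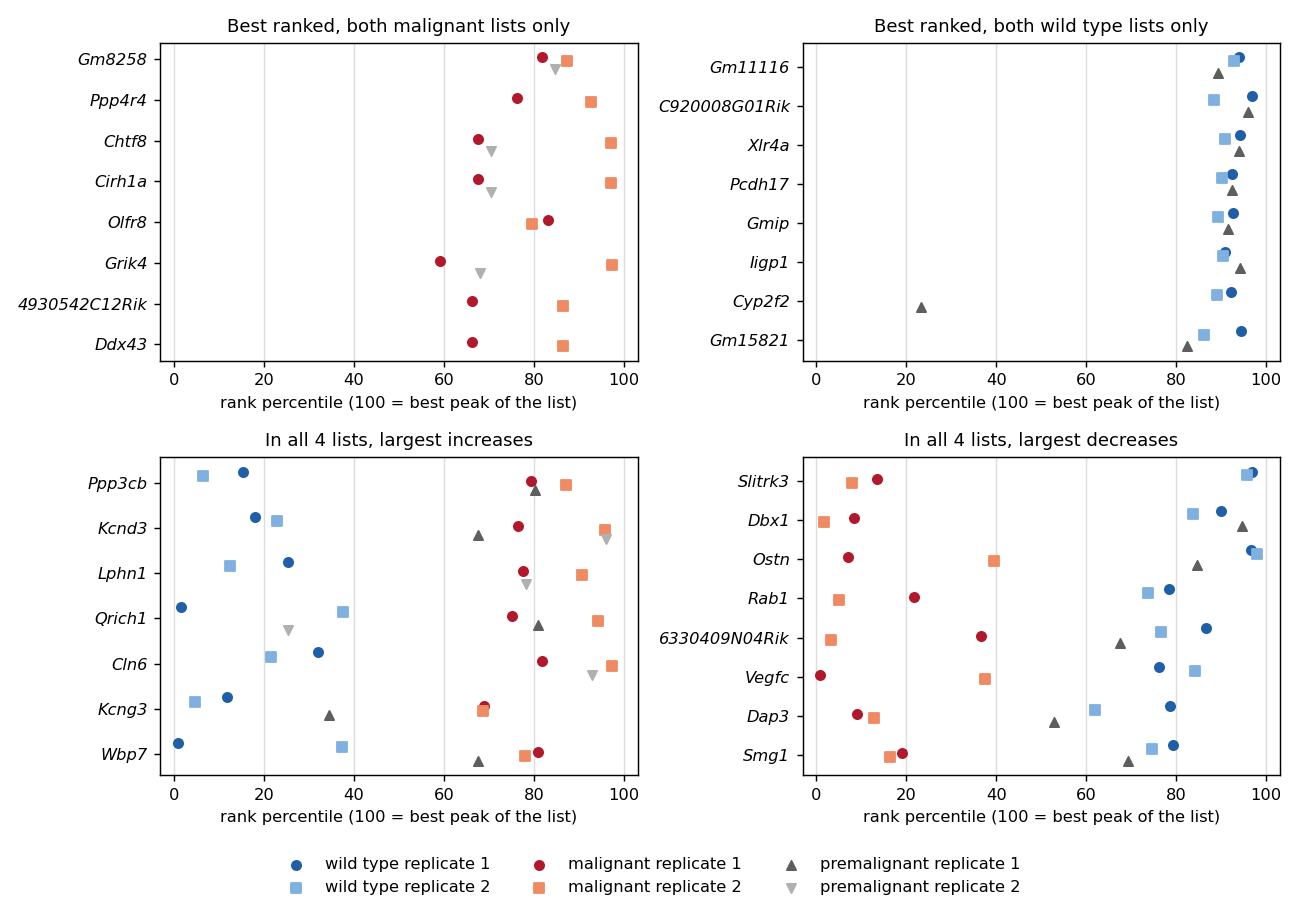
Rank percentile (horizontal axis, 100 is the best peak of a list) of the 8 best ranked genes of each stage-only set and of shared gene starts with the largest increases (7 genes) and decreases (8 genes), with 1 symbol for each library that had a summit there. Missing symbols mean no summit among the kept peaks: premalignant replicate 1 is present for all 8 genes of the wild type lists only, and premalignant replicate 2 for none of them.

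The 1154 gene starts with UBTF in all 4 lists allowed a test of how strongly each was bound relative to the other peaks of its library. By limma on the percentiles, 0 gene starts (0.0%) differed between the stages in either direction at an adjusted p under 0.05 (smallest adjusted p = 0.511), and at an unadjusted p under 0.05 there were 65 higher and 43 lower in malignant cells. These last counts were 368 and 45 with all peaks and 32 and 7 with the best 50000. They were 47 and 55 when the percentile was taken among the shared gene starts alone. With wild type replicate 1 left out, 2 gene starts passed: H3f3a, which encodes histone H3.3, and Ermp1, an endoplasmic reticulum peptidase (limma adjusted p = 0.0443 for both). The wild type stage is then a single library, so that the spread comes from the malignant pair and from limma's pooling over gene starts, and the lone library is assumed to vary alike. H3f3a ranked at 75.2 and 71.9 in wild type replicates 1 and 2 and at 98.1 and 97.4 in malignant replicates 1 and 2. Ermp1 ranked at 91.4 and 83.0 in wild type and 99.4 and 98.4 in malignant libraries. Both genes were named after their values were seen.

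At 266 shared gene starts (23.1%) both malignant percentiles lay above both wild type percentiles, and at 171 (14.8%) both lay below. The median difference, malignant minus wild type, was 1.87 points, and it was 10.6 points with all peaks. It was 4.39 points without wild type replicate 1, -0.244 without wild type replicate 2, 5.3 without malignant replicate 1 and 6.1 without malignant replicate 2. The median difference was -0.0542 points when the percentile was taken among the 1154 shared gene starts alone, and on that scale 220 gene starts were higher and 216 lower without overlap. The median percentile of these gene starts in their lists was 67.7 and 61.0 in wild type and 69.7 and 69.5 in malignant libraries (means 64.3 ± 4.70 and 69.6 ± 0.151, SD, n = 2 each; exact permutation test, p = 0.33). At a typical gene start the replicates of a stage lay 11.9 points apart in wild type and 22.5 points in malignant cells.

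Ppp3cb, the beta catalytic subunit of calcineurin, was among the largest increases. It ranked at 15.3 and 6.54 in wild type replicates 1 and 2 and at 79.3 and 87.1 in malignant replicates 1 and 2. The difference was 72.3 ± 19.4 points (limma SE; adjusted p = 0.511), and the stages did not overlap. Kcnd3 (18.0 and 22.9 against 76.5 and 95.8) and Kcng3 (11.8 and 4.69 against 69.0 and 68.7) are voltage-gated potassium channel genes. The others were Lphn1, an adhesion receptor, Qrich1, Cln6, a lysosomal storage disease gene, and Wbp7, a histone H3 lysine methyltransferase, with differences of 60.3 to 65.2 points. The adjusted p-values of these 7 genes were all 0.511 by limma, and none of the 7 lay on a tandem repeat.

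Among the largest decreases, the first 3 lay on AG or CT repeats. Slitrk3, a neuronal transmembrane protein, ranked at 96.8 and 95.8 in wild type and at 13.5 and 7.94 in malignant libraries, a difference of -85.6 ± 20.0 points (limma SE; adjusted p = 0.511). Dbx1, a homeobox factor of the developing nervous system, ranked at 89.9 and 83.8 against 8.32 and 1.74, and Ostn, which encodes the secreted peptide osteocrin, at 96.7 and 98.0 against 6.97 and 39.4. Their repeats lay within 1 kb upstream of the starts, and the summit was on the repeat in all 4 lists. Rab1, a GTPase of transport to the Golgi, followed without a repeat, at 78.4 and 73.7 in wild type and 21.8 and 5.03 in malignant libraries. The others were 6330409N04Rik, Vegfc, a growth factor of lymphatic vessels, Dap3, a mitochondrial ribosome protein, and Smg1, a kinase of nonsense-mediated decay, with differences of -61.7 to -59.1 points.

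Gene starts at the top of every list had nearly equal percentiles in both stages. Gm10281, a gene model (99.98 and 99.96 in wild type, 99.95 and 99.79 in malignant libraries), and Pak3, a p21-activated kinase, lay on an AG and a CT repeat. Pak3 ranked at 99.97 and 99.95 in wild type and at 99.93 and 99.79 in malignant libraries. Ino80d, a subunit of a chromatin remodelling complex, ranked at 99.89 and 99.89 against 99.89 and 99.95, with no repeat. Ranks in the full lists differed more. They were 19 and 42 in wild type against 47 and 214 in malignant libraries for Gm10281, and 33 and 55 against 66 and 211 for Pak3. For Ino80d they were 110 and 112 against 109 and 49. Of 2 cyclin E genes shared by the lists, Ccne1 ranked at 72.2 and 72.3 in wild type and 93.9 and 93.4 in malignant libraries, a difference of 21.4 ± 7.40 points (limma SE; adjusted p = 0.511). Ccne2 ranked at 6.86 and 50.9 against 64.8 and 69.3. Both were higher in each malignant library than in each wild type library. The lymphoid factor Tcf3 (62.4 and 64.2 against 75.6 and 76.4) also showed no overlap, whereas Ikzf3, the Ikaros relative Aiolos (72.5 and 18.3 against 83.2 and 69.3), did. Bcl6, a repressor of germinal centre and pre-B cells, was lower without overlap, at 97.6 and 96.4 in wild type and at 90.0 and 54.7 in malignant libraries. Bcl11a was lower without overlap as well (59.9 and 54.9 against 38.4 and 47.3). Of the 6 shared genes of the B cell identity list, 1 was higher and 2 were lower without overlap, against 23.1% and 14.8% of all shared gene starts.

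**Figure D3:**
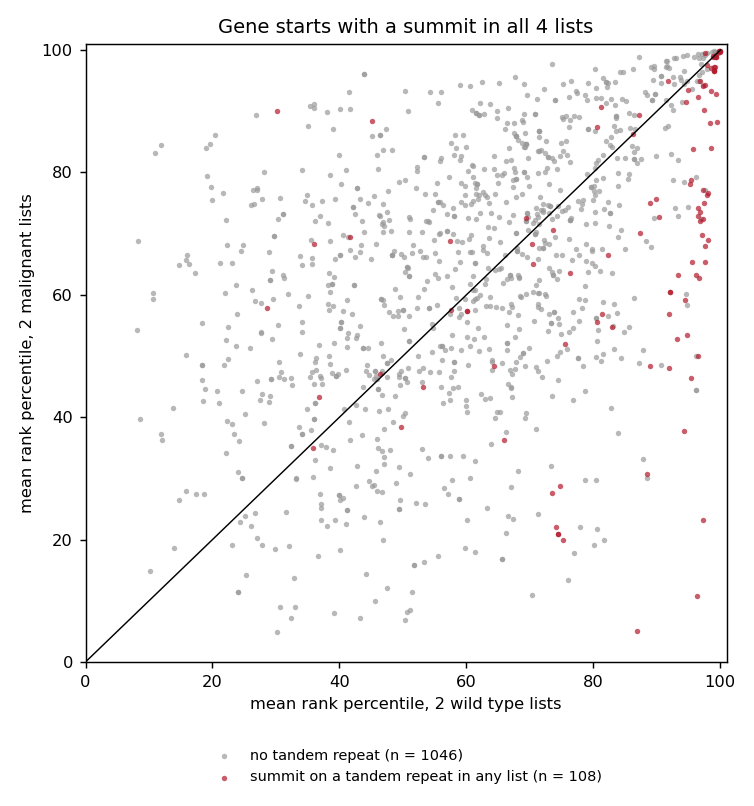
Mean rank percentile of the 2 malignant lists (vertical axis) against that of the 2 wild type lists (horizontal axis) at each of the 1154 gene starts with a summit in all 4 lists, with the line of equality. Red points are the 108 gene starts whose summit lay on a tandem repeat in any list, and most of them fall below the line, with a median difference of -11.6 points against 3.59 points for the other 1046.

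A tandem repeat was counted as a run of at least 40 bp of a unit of 1 to 6 bp within the 201 bp around a summit. Of the 1188 genes in the wild type lists only, 27.4% in replicate 1 and 28.0% in replicate 2 had their summit on one, against 1 of 107 genes (0.935%) in each malignant library for the malignant lists only. Shared gene starts stood at 8.58%, 8.93%, 6.76% and 6.85% in wild type replicates 1 and 2 and malignant replicates 1 and 2. The units were mostly of 2 bases. AG repeats, in either strand and phase, underlay 15.2% and 15.5% of the wild type-only summits and AC repeats 10.8% and 10.9%.

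Over all gene starts with a summit, the share on a tandem repeat was 11.6% and 13.9% in wild type and 4.74% and 4.27% in malignant libraries, means of 12.8% ± 1.67 and 4.51% ± 0.331 (SD, n = 2 each; exact permutation test, p = 0.33). The stages did not overlap. Among only the 1000 best ranked gene starts of each library, to set aside the unequal number of genes, it was 26.4% and 33.2% in wild type against 8.3% and 4.4% in malignant libraries. The premalignant libraries did not fall together. Premalignant replicate 1 had 12.1% of all its gene starts and 20.4% of its best 1000 on repeats, near the wild type values, and premalignant replicate 2 had 4.18% and 5.0%, near the malignant values. The repeat share thus followed the width of the narrowest peaks in all 6 libraries, and the part of peak calling or mapping in it was not tested.

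Repeats were unevenly spread over the shared gene starts. Of the 171 that were lower in both malignant lists, 57 (33.3%) had a summit on a repeat in any list, against 5 (1.88%) of the 266 that were higher. Of the 108 shared gene starts on repeats, 57 (52.8%) were lower and 5 (4.63%) higher in both malignant lists. Without them, 261 of 1046 (25.0%) were higher and 114 (10.9%) lower.

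**Figure D4:**
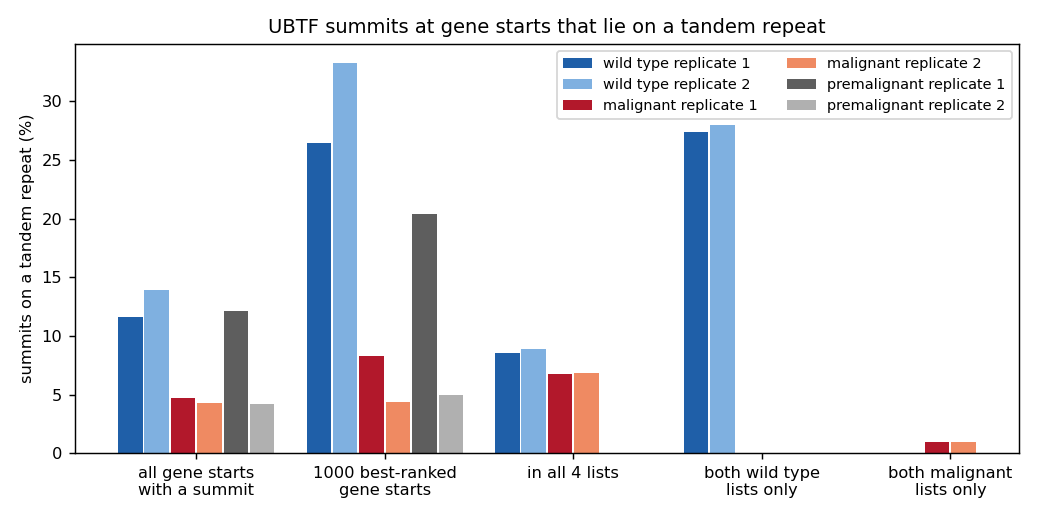
Share of UBTF summits at gene starts that lay on a tandem repeat (vertical axis, percent) for all gene starts, the 1000 best ranked gene starts, and the genes in all 4 lists, in both wild type lists only and in both malignant lists only, with 1 bar per library and the premalignant libraries shown for the first 2 groups. The wild type libraries and premalignant replicate 1 lie above 11% in all gene starts and above 20% in the best 1000, and the malignant libraries and premalignant replicate 2 below 5% and below 9%.

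A start was called CpG-rich when the 500 bp on either side held more than 55% GC and an observed over expected CpG ratio above 0.6. This was so for 82 of the 107 malignant-only genes (76.6%), 716 of the 1188 wild type-only genes (60.3%) and 1027 of the 1154 shared genes (89.0%), against 38.4% of all genes and 15.3% of genes in none of the 4 lists. When the gene starts on repeats were set aside, the malignant-only and wild type-only shares were 77.4% and 78.8%. In each library a summit was more frequent at CpG-rich starts than at other starts: 56.6% against 12.7% in wild type replicate 1, 48.6% against 11.3% in wild type replicate 2, 38.8% against 7.8% in malignant replicate 1 and 29.4% against 3.39% in malignant replicate 2.

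The E-box CACGTG, the sequence that MYC with MAX binds best, occurred within 500 bp of the start of 29 malignant-only genes (27.1%), 211 wild type-only genes (17.8%) and 201 shared genes (17.4%), against 17.0% of all genes. The motif reads the same on both strands. The GC box GGGCGG, searched on both strands, was near 84.1%, 76.6% and 94.0% of them, against 60.0% of all genes. Both searches describe letters in the window and no test was made of them.

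Genes of ribosome production, growth and the B lineage were then taken from lists. Over all genes, 29.6%, 25.6%, 19.7% and 13.4% had a summit in wild type replicates 1 and 2 and malignant replicates 1 and 2, and every list count is read against these shares, given below in the same order. Of the 23 genes of the polymerase I list, 9 and 8 had a summit in wild type replicates 1 and 2, 6 in malignant replicate 1 and 0 in malignant replicate 2 (39.1%, 34.8%, 26.1% and 0.0%), above the shares over all genes in the first 3 libraries and below it in the fourth. Ubtf itself ranked at 80.0 and 87.1 in wild type and 95.1 in malignant replicate 1, where the summit lay in an intron 619 bp from the start. In malignant replicate 2 its summit had rank 117024.5 in the full list, just outside the kept peaks, and it was kept in both premalignant lists at 90.2 and 98.1. Top1, DNA topoisomerase I, ranked at 85.2 and 52.6 in wild type and 51.8 in malignant replicate 1, and Polr1c, a subunit of polymerases I and III, at 65.7 in malignant replicate 1 only. Of the 34 genes of nucleolar ribosome assembly, 10, 8, 9 and 4 had a summit in wild type replicates 1 and 2 and malignant replicates 1 and 2 (29.4%, 23.5%, 26.5% and 11.8%), near the shares over all genes in wild type and malignant replicate 2.

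Of the 21 genes of the MYC network, 8 and 9 had a summit in wild type and 10 and 5 in malignant libraries (38.1%, 42.9%, 47.6% and 23.8%, above 29.6%, 25.6%, 19.7% and 13.4% of all genes). Ctcf, Mlxip and Fbxw7 were in all 4 lists, 14.3% of the list against 5.16% of all genes. Myc had a summit in malignant replicate 1 at 98.6, on an untranslated part of an exon 172 bp from the start, and none among the kept peaks of the other 3 libraries. It was at 92.1 in premalignant replicate 1 and not kept in premalignant replicate 2. In the full list of wild type replicate 2 it had rank 109701.5, and it was not in the full lists of wild type replicate 1 and malignant replicate 2. The transgene carries Myc sequence, so reads from it and from the native gene cannot be told apart.

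The histone genes showed the gap between the malignant replicates most fully. Of 67 replication-dependent histone genes, which are expressed in S phase and lie in clusters, 53 and 54 had a summit in wild type replicates 1 and 2, 50 in malignant replicate 1 and 0 in malignant replicate 2 (79.1%, 80.6%, 74.6% and 0.0%, against 29.6%, 25.6%, 19.7% and 13.4% of all genes). In the full lists their median rank was 17774 and 18960 in wild type and 5246 in malignant replicate 1, better than in wild type. In malignant replicate 2 only 20 were found, at a median rank of 325043. Premalignant replicates 1 and 2 had 56 and 0. The proteasome subunits, 41 genes, had 17, 11, 11 and 0 in wild type replicates 1 and 2 and malignant replicates 1 and 2 (41.5%, 26.8%, 26.8% and 0.0%). The cytosolic ribosomal proteins, 85 genes, had 29, 16, 14 and 1 (34.1%, 18.8%, 16.5% and 1.18%), below the shares over all genes except in wild type replicate 1. Only Hist1h4f and Hist4h4 among histones were in the wild type lists only (2.99%, against 5.31% of all genes), and malignant replicate 1 had both in its full list. Near-identical histone genes can share reads, so single members are uncertain.

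Genes of translation factors, 67 in all, had a summit at 33 and 27 in wild type and 32 and 15 in malignant libraries (49.3%, 40.3%, 47.8% and 22.4%), above 29.6%, 25.6%, 19.7% and 13.4% of all genes. In all 4 lists were 9 of them (13.4%, against 5.16% of all genes). Of these 9, 1 was higher and 3 were lower in both malignant libraries without overlap, against 23.1% and 14.8% of all shared gene starts. The higher one was Eif4e2, a cap-binding protein (53.6 and 38.6 against 74.3 and 86.7). Eif4g2, a scaffold of translation initiation, was among the lower (87.9 and 74.1 against 60.7 and 66.9). The p53 and apoptosis genes, 30 in all, had 17 and 13 in wild type and 8 and 4 in malignant libraries (56.7%, 43.3%, 26.7% and 13.3%). Their share was above that of all genes in 3 libraries and near it in malignant replicate 2, and the shares over all genes fell in the same order. Bcl2, an apoptosis inhibitor (75.2 and 70.9 against 85.6 and 61.2), and Mcl1, its relative (47.0 and 36.3 against 47.7 and 86.8), were shared by all lists. Glycolysis and nucleotide synthesis genes, 42 in all, had 20 and 15 in wild type and 12 and 1 in malignant libraries (47.6%, 35.7%, 28.6% and 2.38%), above all genes in 3 libraries and below them in malignant replicate 2. Cell cycle and replication genes, 38 in all, had 14 and 10 in wild type and 12 and 4 in malignant libraries (36.8%, 26.3%, 31.6% and 10.5%), near all genes in wild type replicate 2 and malignant replicate 2.

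Of 8 B cell differentiation genes that the study followed, Lcp2 had a summit at 49.8 and 72.1 in wild type and 25.6 in malignant replicate 1, on a TC repeat, and Ebf1 at 96.7 in wild type replicate 1 only. Of 11 genes of RNA and energy metabolism that it followed, Cyp20a1 (46.8), Eif3d (6.08), Gstcd (45.3) and Cyp51 (4.50) had one in wild type replicate 1 only, and Parn had one in wild type replicate 2 (20.2) and malignant replicate 1 (23.9). These genes were chosen by the study on samples of this series and are not independent evidence.

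The 39 B cell identity genes had a summit at 14 and 13 in wild type and 12 and 8 in malignant libraries (35.9%, 33.3%, 30.8% and 20.5%), above 29.6%, 25.6%, 19.7% and 13.4% of all genes. Of 40 Hox genes, 10, 9, 9 and 6 had one in wild type replicates 1 and 2 and malignant replicates 1 and 2 (25.0%, 22.5%, 22.5% and 15%), near the shares over all genes. Of markers of other cells the sort could hold, 3, 1, 0 and 2 of 17 T cell genes (17.6%, 5.88%, 0.0% and 11.8%) had a summit in the same order. Of 19 myeloid genes 1, 0, 0 and 0 had one, and of 16 erythroid and megakaryocyte genes 3, 3, 1 and 0 (18.8%, 18.8%, 6.25% and 0.0%). These shares were below those of all genes, on short lists. Cd5 and Hbb-b2, which were in the wild type lists only, had their summits on tandem repeats. The olfactory and vomeronasal receptors, 1435 genes not known for a role in B cells, had 61, 59, 19 and 13 (4.25%, 4.11%, 1.32% and 0.906%), below all genes in each library. Their 27 members in the wild type lists only, 1.88% of the list against 5.31% of all genes, included Olfr1512 (93.8 and 73.6, on a CT repeat) and Olfr1513 (88.0 and 77.0, on an AC repeat). Of 9 Y-linked genes, Eif2s3y alone had a summit, in all 4 lists at 98.8 to 99.2 on a TC repeat, although the wild type mice were female per the study's methods.

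**Figure D5:**
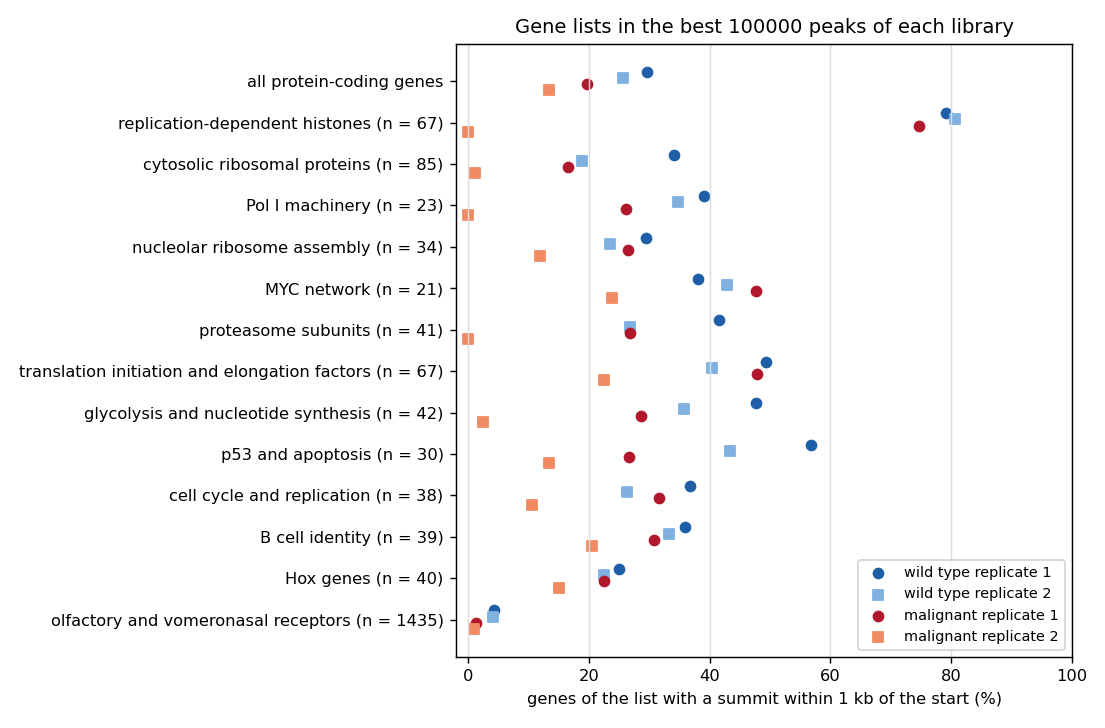
Share of the genes of each list with a UBTF summit within 1 kb of the start (horizontal axis, percent) in the 2 wild type and 2 malignant libraries, with all protein-coding genes on the first line. Malignant replicate 2 is at 0% for histones, the polymerase I machinery and proteasome subunits, whereas malignant replicate 1 is at 74.6% of histones, beside 79.1% and 80.6% in wild type.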

How the data were processed

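UBTF ChIP-seq was made from pre-B cells of 2 mice per stage. As the paper's methods state, the authors mapped 50-base paired reads with bowtie2 to mm9 joined to 1 copy of the rDNA repeat, removed duplicates with Picard (1.110 in the submitters' processing notes) and called peaks with SPP. Each library has its own deposited list; the study's later filter on irreproducible discovery rate between replicates was not applied here. The deposited score of a peak is SPP's signal, which is not scaled between libraries, so only ranks were compared. The deposited p-value column is a false discovery rate and was not used to select peaks. It was at most 0.00361 in the wild type and malignant lists and at most 0.0496 in the premalignant lists. Tied scores shared their mean rank. Gene starts were those of GENCODE M1, and the best ranked summit within 1 kb was used for each gene. Percentiles of shared gene starts were tested with limma 3.58.1 (R 4.3.3; empirical Bayes with a trend, Benjamini-Hochberg adjustment), and library values with two-sided exact permutation tests. Scripts were tested on simulated data. Genes named in full were the 8 best ranked of each stage-only set, the 8 largest increases and decreases among shared gene starts whose stages did not overlap, the 3 best in all 4 lists, and up to 4 members of each list, apart from a few items that are not reported here; other list members were named after their values were seen. The genes, lists and tests were chosen with earlier results of these data known.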

Additional observations from a re-analysis of the deposited data

How the results depend on the processing

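The counts of stage-only genes depended strongly on how many peaks were kept. With all peaks of each list, 607 genes were in the malignant lists only, 403 in the wild type lists only and 3485 in all 4, so the larger stage-only set was the malignant one, and the difference in genes per library turned to 491 (exact permutation test, p = 0.667); the cause was not tested. With 1 summit for each group of overlapping peaks the counts were 360, 684 and 1979. With the best 50000 peaks 460 genes were in the wild type lists only and 417 in all 4. Counting a peak whose interval reached the window gave 176 malignant-only genes. Requiring absence from the full lists of the other stage left 52 and 187 genes. Leaving out each library in turn gave 202 to 782 malignant-only, 1733 to 2591 wild type-only and 1249 to 2478 shared genes. These counts could not fall, because leaving out a library removes a condition for membership, so only the size of the rise is informative. Malignant-only genes were 605 without malignant replicate 1, 782 without malignant replicate 2, 242 without wild type replicate 1 and 202 without wild type replicate 2. Wild type-only genes were 2512, 1733, 2101 and 2591 in that order, and shared genes were 2478 without malignant replicate 2. The limma test called 0 to 2 higher gene starts when 1 library was left out, the 2 without wild type replicate 1, and 0 lower.

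The replicate numbers do not pair the animals, and with the replicate number as a block limma called 0 gene starts higher and 0 lower (58 and 61 at an unadjusted p under 0.05); the deviations of the same-numbered libraries correlated at r = 0.0523 across 1154 genes. Alternatives added after seeing the data took the percentile among the shared gene starts, which gave 220 higher and 216 lower gene starts without overlap, and left out gene starts on tandem repeats, which gave 261 and 114, with 106 malignant-only, 843 wild type-only and 1046 shared genes. Of 109 alternative values, 88 kept their direction and stayed on the same side of the threshold or within 1.5 times the value reported, 20 moved and 1 reversed. This count is no measure of robustness. The exact tests of these libraries cannot give a p below 0.33, so their values stayed on the same side whatever their size. The difference of -2472 genes counted as unchanged when it was -469 with the best 50000 peaks. Limma counts of 0 have no direction to keep. Depth was unknown, and absence from 100000 peaks does not show that UBTF was absent from a gene.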
